A study of Mus musculus with 12 samples.

Results

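Mouse bone-marrow derived macrophages that had met the full tumor ex vivo were compared with macrophages that had met myelin alone, over all genes of the table. The members are 6 of the 12 libraries of this macrophage assay: 3 named Full Tumor and 3 named Myelin Alone, with 1 library of each group at each of the mn numbers 957, 958 and 016. All 24728 genes of the table were read, and the 13414 with enough counts were tested. The cells were dTomato+ macrophages grown from bone marrow and sorted from an assay with dissociated brain tumor. dTomato is a red fluorescent protein carried by the macrophages. Going by the group names, Full Tumor cells met the whole tumor preparation and Myelin Alone cells met myelin without it. Tumor without Myelin cells met the preparation freed of myelin, and a further group is called Control. The last 2 groups served here as a second reading, from other libraries, of the change with tumor material. Their libraries were also fitted together with the other 6. They thus bear on which genes were tested, on the mn number terms and on the estimate of spread behind the calls. They enter a test by mn number as well. The meaning of the mn number, the amount of myelin, the length of exposure, the content of Control and the tumor model behind these libraries are not stated in the labels. Separate animals or cultures are not named either, so a p-value here weighs a difference against the spread among these samples alone, which may be technical.

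Oligodendrocytes wrap axons in myelin, a membrane rich in cholesterol, and brain macrophages take up its debris when tissue is damaged. Macrophages that digest myelin have to store or export its cholesterol, largely under the control of the nuclear receptor LXR. A tumor preparation brings other inputs: living and dying tumor cells, nucleic acids, cytokines and matrix. Macrophages read these with Toll-like receptors, Fc receptors, lectins and scavenger receptors, and type I interferon is a common output of nucleic acid sensing. Since both groups had contact with brain material, the comparison asks what the full tumor adds to or changes from the state that myelin by itself gives.

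The 6 libraries were of similar depth, from 17827098 to 21689624 counts in Full Tumor and from 17571197 to 19185453 in Myelin Alone. Between 16465 and 17861 genes were detected in Full Tumor and between 16647 and 17321 in Myelin Alone, and transcripts of the mitochondrial genome made up 0.557% to 0.693% of counts in Full Tumor and 0.411% to 0.766% in Myelin Alone. Levels are given as CPM, counts scaled to a common library total. Where a gene had 0 counts, up to 3 counts remain possible, equal to 0.142 to 0.171 CPM by library. The mn number accounted for 56.5% of the variance over the 6 libraries, against 40% from its degrees of freedom alone, and the group for 16.5%, against 20%. On the first principal component the 016 libraries lay at 52.6 (Full Tumor) and 37.3 (Myelin Alone), while the other 4 lay between −38.1 and 4.85. Macrophage transcripts were abundant in every library: Csf1r, the receptor of the macrophage growth factor CSF1, was read at 1462, 1423 and 1511 CPM in Full Tumor and at 1695, 1173 and 1169 CPM in Myelin Alone.

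Against Myelin Alone, macrophages with the full tumor had more transcript of a small set of surface and immune genes. Members of the Ms4a family of tetraspanning membrane proteins, the receptors Siglec1 and Fcgr1, and the cytoplasmic protein Aif1 were among them. A single gene, the protease inhibitor Serpinb9b, was lower. In all, 15 of 13414 genes passed the test (0.112%), with 14 higher (0.104%) and 1 lower (0.00745%). The test was edgeR's quasi-likelihood test over all 12 libraries, with the group and the mn number as terms and an adjusted p under 0.05, which is what "called" means below. All 15 are protein coding, and each was on 1 side of its partner at all 3 numbers, as 12.4% of tested genes did upward and 11.6% downward. In 8 of the 15 the ranges of the 2 groups did not overlap, a pattern that 3.63% of tested genes showed upward and 3.12% downward. The median log2 fold change of all tested genes was −0.0062, and 995 genes (7.42%) had an unadjusted p under 0.05, of which 610 were higher (4.55%) and 385 lower (2.87%). The 15 calls rest on the mn number as a term: without it edgeR called 0 genes, with 402 at an unadjusted p under 0.05. They also rest on the spread shared over 12 libraries, since a fit of the 6 libraries alone called 1 gene, which was not among the 15. Leaving out a single library left 0 calls (Myelin Alone 957), 1 (Myelin Alone 958) or 3 (Full Tumor 958) in the most affected cases, while DESeq2 called 163 genes (34 lower) and limma-voom 34 (9 lower).

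**Figure D1:**
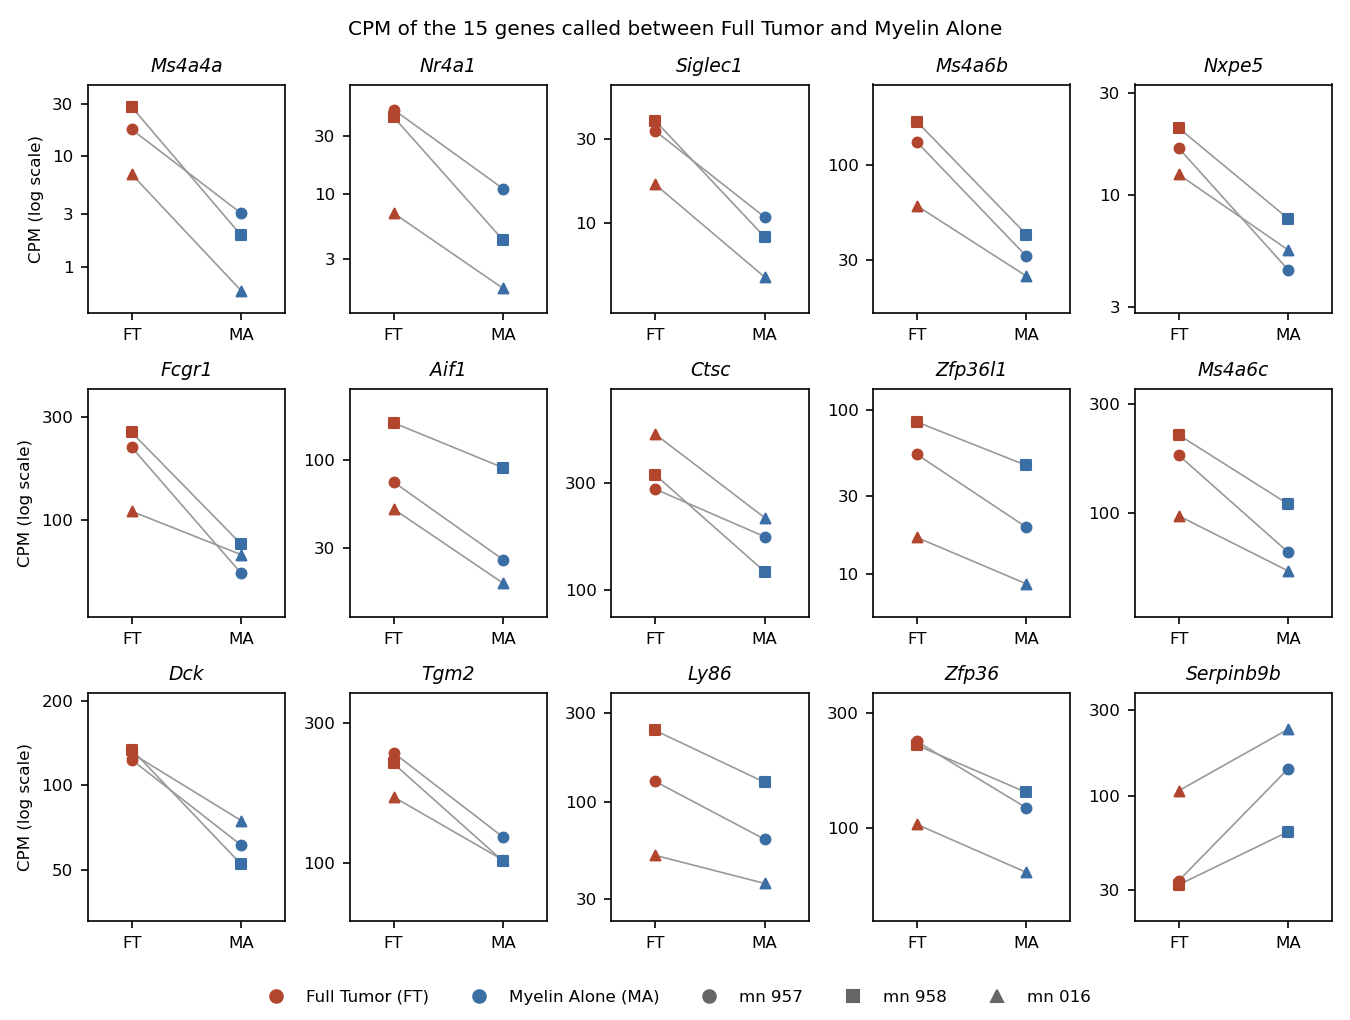
CPM (log scale, a range of its own in each panel) of the 15 called genes in each Full Tumor (FT, red) and Myelin Alone (MA, blue) library; the symbol gives the mn number and a line joins the 2 libraries of a number. Lines slope down to Myelin Alone in 14 panels and up in the Serpinb9b panel, and the number 016 library is often set off from the other 2 of its group.

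The Ms4a family gave 3 of the 15 calls. Ms4a genes lie side by side on chromosome 19 and encode membrane proteins with 4 membrane passes, several of which are found on macrophages and microglia. Ms4a4a (ENSMUSG00000101389, chr19:11375523-11392790 on mm10) was measured at 17.5, 27.9 and 6.90 CPM in Full Tumor at numbers 957, 958 and 016, and at 3.05, 1.93 and 0.610 CPM in Myelin Alone. Its lowest Full Tumor library was above its highest Myelin Alone library, and the log2 fold change of 3.28 ± 0.42 (SE) was the largest of the 15 (edgeR adjusted p = 0.0167). Ms4a6b (ENSMUSG00000024677, chr19:11516512-11531256) was read at 133, 172 and 59.4 CPM in Full Tumor and 31.4, 41.3 and 24.4 CPM in Myelin Alone, again without overlap. Its log2 fold change of 1.81 ± 0.17 had the smallest p of all tested genes (edgeR adjusted p = 0.00316). Ms4a6c (ENSMUSG00000079419, chr19:11469366-11482192) stood at 179, 220 and 97.1 CPM in Full Tumor and 67.2, 109 and 55.6 CPM in Myelin Alone. The Full Tumor library of number 016 fell below the Myelin Alone library of number 958, so the groups overlapped, yet every pair was higher with tumor and the log2 fold change was 1.07 ± 0.14 (edgeR adjusted p = 0.0167).

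Of the 13 listed Ms4a genes, 11 were in the table and 9 were tested. Of the 9, 3 were called, 6 were higher at an unadjusted p under 0.05 and 5 had groups that did not overlap. Over all tested genes these shares were 0.104%, 4.55% and 3.63% upward, and they apply to the lists below too. The median log2 fold change of the 9 Ms4a genes was 1.07, against −0.0062 for all tested genes. Their median difference was 1.28, 1.01 and 0.40 in the pairs 957, 958 and 016. Ms4a14 and Ms4a6d did not pass, with log2 fold changes of 0.65 and 0.47 (edgeR adjusted p = 0.395 and 0.418). Ms4a7 was read at 1297, 1699 and 862 CPM in Full Tumor and at 952, 1400 and 904 CPM in Myelin Alone, with a log2 fold change of 0.22 and a 95% interval of −0.031 to 0.48. Ms4a4c was at 9.18, 7.18 and 1.84 CPM in Full Tumor and at 1.37, 0.386 and 1.27 CPM in Myelin Alone, a log2 fold change of 2.50 that missed the threshold (edgeR adjusted p = 0.476). Ms4a3, which marks precursors of granulocytes and monocytes, ran the other way at −3.69 without passing (edgeR adjusted p = 0.656), and it was at 0 in 4 of the 6 libraries. The table holds 476 tested genes of chromosome 19, and the 3 called ones are these neighbours. Ms4a genes are close copies of one another, so reads may have been shared out between them by the authors' counting, and the split between members is uncertain.

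**Figure D2:**
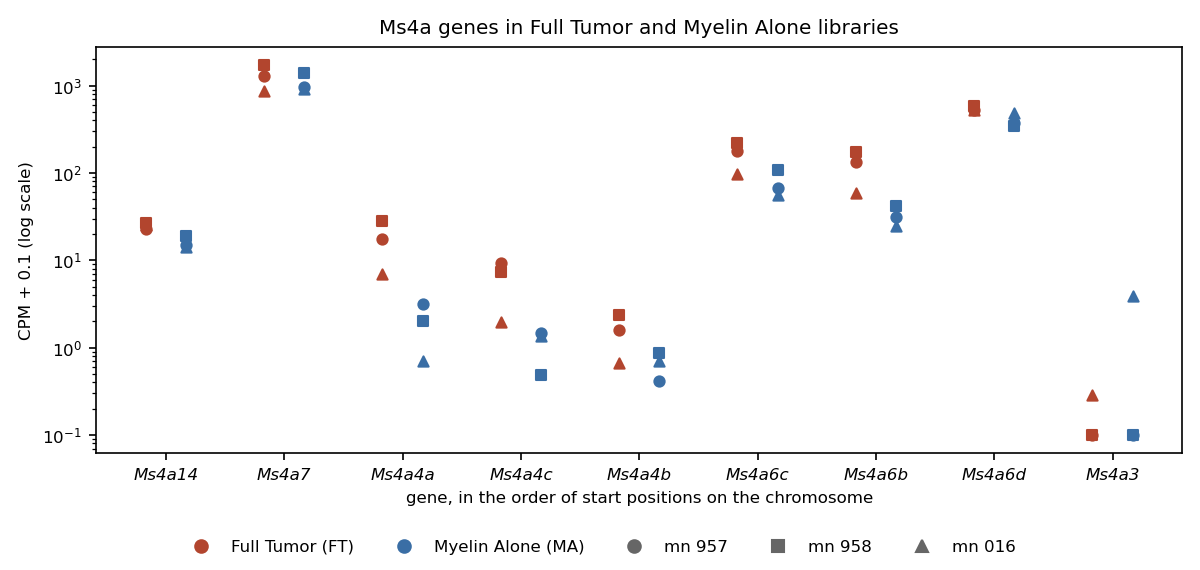
CPM plus 0.1 (log scale) of the 9 tested Ms4a genes, in the order of their start positions, in Full Tumor (red, left of each pair) and Myelin Alone (blue) libraries; the symbol gives the mn number. Ms4a4a, Ms4a4c, Ms4a6b, Ms4a14 and Ms4a6d have all red points above all blue ones, while Ms4a7, Ms4a4b, Ms4a6c and Ms4a3 overlap.

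The start regions of Ms4a6b and Ms4a6c are shown because these called neighbours share sequence there. The sequences are RefSeq's promoter windows on GRCm38.p6, from 250 bases before to 50 bases after the start, on the plus strand, at chr19:11518309-11518608 for Ms4a6b and chr19:11469118-11469417 for Ms4a6c. The Ms4a6b window lies inside the gene span given above, which begins upstream of it at 11516512. The Ms4a6c window holds the first position of its gene span, 11469366. Capitals mark an identical run of 48 bases, found in 2 of the 32851 windows of the table.
Ms4a6b: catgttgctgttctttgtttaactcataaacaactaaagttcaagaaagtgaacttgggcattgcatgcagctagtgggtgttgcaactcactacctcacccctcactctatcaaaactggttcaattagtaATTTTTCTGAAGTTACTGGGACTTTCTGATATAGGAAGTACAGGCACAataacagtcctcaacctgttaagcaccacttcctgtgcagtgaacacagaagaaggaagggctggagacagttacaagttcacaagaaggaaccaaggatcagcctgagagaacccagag
Ms4a6c: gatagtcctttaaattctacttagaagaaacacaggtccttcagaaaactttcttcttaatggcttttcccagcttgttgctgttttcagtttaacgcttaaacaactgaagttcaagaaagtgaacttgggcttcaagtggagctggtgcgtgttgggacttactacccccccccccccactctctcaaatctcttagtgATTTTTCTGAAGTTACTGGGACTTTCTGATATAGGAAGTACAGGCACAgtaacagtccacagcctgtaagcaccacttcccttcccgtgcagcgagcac
Laid over each other on this run, 117 of 231 letters were identical (50.6%, with no gaps allowed). The run begins 118 bases before the start in Ms4a6b and 49 bases before it in Ms4a6c.

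Receptors and other proteins typical of macrophages made up 4 further calls. Siglec1 (ENSMUSG00000027322, chr2:131069220-131086765), a sialic acid-binding lectin known as a marker of interferon-exposed macrophages, was read at 33.1, 37.8 and 16.6 CPM in Full Tumor and at 10.8, 8.38 and 4.99 CPM in Myelin Alone. The groups did not overlap, and it rose by a log2 fold change of 1.82 ± 0.26 (edgeR adjusted p = 0.0247). Fcgr1 (ENSMUSG00000015947, chr3:96282909-96293969), the high-affinity receptor for IgG, was at 217, 254 and 109 CPM in Full Tumor and at 56.4, 77.0 and 68.9 CPM in Myelin Alone, again without overlap. It rose by 1.41 ± 0.22 on the log2 scale (edgeR adjusted p = 0.0435), with a smaller difference at number 016 (0.66) than at 957 and 958 (1.93 and 1.72). Aif1 (ENSMUSG00000024397, chr17:35170991-35176068), the actin-binding protein IBA1 that is used to stain microglia and macrophages, was at 74.3, 167 and 51.3 CPM in Full Tumor and 25.6, 90.4 and 18.6 CPM in Myelin Alone. Number 958 was high in both groups, which made the groups overlap, and the log2 fold change was 1.27 ± 0.18 (edgeR adjusted p = 0.0247). Ly86 (ENSMUSG00000021423), which encodes MD-1, a partner of the Toll-like receptor homolog RP105, rose by 0.82 ± 0.13 (edgeR adjusted p = 0.0384) and is named after its values were seen.

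Among the other Fc gamma receptors, Fcgr4 had a log2 fold change of 0.74 ± 0.13 and Fcgr3 of 0.18 ± 0.064, and neither passed (edgeR adjusted p = 0.0814 and 0.495). The list of 5 Fc gamma receptors thus had 1 call and a median of 0.18. In the list of 5 tested sialic acid receptors Siglec1 was the single call, and the median was 0.42, with per-pair medians of −0.095, −0.090 and 0.22.

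The start windows of Fcgr1 (chr3:96293920-96294219, minus strand) and Aif1 (chr17:35176003-35176302, minus strand) are shown because each holds letters known as sites of immune transcription factors. They are from the same RefSeq table on GRCm38.p6 and read 5′ to 3′ on the gene's strand. Capitals mark, in Fcgr1, the gamma-activated site TTCNNNGAA and then the PU.1 box, and in Aif1 the interferon-stimulated response element (GAAA, 2 free letters, GAAA) and then the PU.1 box (GAGGAA, searched on both strands like the others).
Fcgr1: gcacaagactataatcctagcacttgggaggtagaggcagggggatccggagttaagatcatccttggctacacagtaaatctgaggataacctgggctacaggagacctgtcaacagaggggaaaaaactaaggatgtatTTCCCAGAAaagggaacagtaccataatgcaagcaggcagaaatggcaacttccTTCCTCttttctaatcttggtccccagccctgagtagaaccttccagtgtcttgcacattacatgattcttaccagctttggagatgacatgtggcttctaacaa
Aif1: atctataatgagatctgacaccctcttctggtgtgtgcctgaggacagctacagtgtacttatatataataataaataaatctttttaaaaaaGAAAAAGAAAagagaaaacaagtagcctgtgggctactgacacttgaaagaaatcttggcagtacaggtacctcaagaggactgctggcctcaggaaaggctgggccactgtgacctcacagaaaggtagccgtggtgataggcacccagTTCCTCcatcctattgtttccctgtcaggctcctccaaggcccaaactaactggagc
Of the 15 called genes, 13 had a window in the table. The interferon-stimulated response element was in 1 of the 13 (3.44% of all 32851 windows), the gamma-activated site in 3 (8.30%) and the PU.1 box in 7 (28.3%). Letters of AP-1 sites, cAMP response elements and antioxidant response elements were searched as well. They were in 1 (7.81%), 0 (1.79%) and 2 (12.4%) of the 13. A match of letters is no evidence of binding, and a window without them says nothing about the factor.

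Enzymes formed a second group of calls. Ctsc (ENSMUSG00000030560, chr7:88278085-88310888), the lysosomal dipeptidyl peptidase cathepsin C that activates serine proteases of immune cells, was at 282, 326 and 495 CPM in Full Tumor and at 173, 120 and 210 CPM in Myelin Alone. Here number 016 was the highest of its group in both, the groups did not overlap, and the gene rose by a log2 fold change of 1.14 ± 0.15 (edgeR adjusted p = 0.0167). Dck (ENSMUSG00000029366, chr5:88764996-88783281), deoxycytidine kinase of the nucleoside salvage pathway, varied little across numbers in Full Tumor. It was read at 124, 134 and 130 CPM in Full Tumor and at 61.1, 52.2 and 74.8 CPM in Myelin Alone, and rose by 1.06 ± 0.11 (edgeR adjusted p = 0.00743). Tgm2 (ENSMUSG00000037820, chr2:158116402-158146436), a transglutaminase that cross-links proteins and takes part in the uptake of dying cells, was at 237, 218 and 168 CPM in Full Tumor and 123, 102 and 103 CPM in Myelin Alone. It rose by 0.91 ± 0.11 (edgeR adjusted p = 0.0127), without overlap. Nxpe5 (ENSMUSG00000047592), a gene of the neurexophilin-like family, rose by 1.48 ± 0.22 (edgeR adjusted p = 0.0344), with 12.5 to 20.6 CPM in Full Tumor and 4.48 to 7.78 CPM in Myelin Alone. The list of 33 lysosomal genes and cathepsins, which holds Ctsc, had this 1 call and a median of 0.039.

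A nuclear receptor and 2 RNA-binding proteins were also called. Nr4a1 (ENSMUSG00000023034, chr15:101254269-101274795), an orphan nuclear receptor that is induced within a short time of many stimuli, was at 48.9, 42.6 and 7.04 CPM in Full Tumor and at 11.1, 4.25 and 1.72 CPM in Myelin Alone. Number 016 was low in both groups, so that the groups overlapped, and the log2 fold change was 2.48 ± 0.38 (edgeR adjusted p = 0.0344). Zfp36 and Zfp36l1 encode proteins of the tristetraprolin family, which bind AU-rich elements and speed the decay of cytokine transcripts. Zfp36 (ENSMUSG00000044786) was at 229, 221 and 103 CPM in Full Tumor and 121, 141 and 65.2 CPM in Myelin Alone, a log2 fold change of 0.74 ± 0.12 (edgeR adjusted p = 0.039). Zfp36l1 (ENSMUSG00000021127) was at 53.4, 84.1 and 16.7 CPM in Full Tumor and 19.2, 45.8 and 8.70 CPM in Myelin Alone, a log2 fold change of 1.10 ± 0.17 (edgeR adjusted p = 0.0344). Both were higher in every pair and overlapped between groups. Nr4a1 was the single call among 18 tested immediate early genes, whose median was 0.098, with 3 higher and 2 lower at an unadjusted p under 0.05. Fos, a subunit of AP-1, did not pass at 0.67 ± 0.17 (edgeR adjusted p = 0.244).

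Serpinb9b (ENSMUSG00000021403, chr13:33027416-33041884), an intracellular inhibitor of the granzyme-inhibiting serpin family, was the call that fell. It was at 33.8, 32.0 and 107 CPM in Full Tumor and at 142, 63.3 and 236 CPM in Myelin Alone. The Full Tumor library of number 016 was above the Myelin Alone library of number 958, and within each number Full Tumor was the lower one. The log2 fold change was −1.38 ± 0.19 (edgeR adjusted p = 0.0188). Mice carry several close copies of this serpin, so its count may include or lack reads of its neighbours.

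The other 6 libraries give the change with tumor material a second time, as Tumor without Myelin against Control. None of them enters the Full Tumor or Myelin Alone values, although the mn numbers and the estimate of each gene's spread are shared, so only directions and sizes come from separate libraries. All 15 genes had the same direction there, against 61.7% of all tested genes, and 14 of the 15 were called among 100 called genes (0.745% of those tested, with 75 higher, 0.559%, and 25 lower, 0.186%). Nr4a1 was the exception, with a log2 fold change of 1.68 (edgeR adjusted p = 0.0665). Siglec1 rose by 2.13, Ms4a6b by 2.48 and Fcgr1 by 1.74 in that comparison (edgeR adjusted p = 0.00554, 0.00013 and 0.0068), and Serpinb9b fell by 1.67 (edgeR adjusted p = 0.00296). In the reverse reading, all 100 genes called there had the same direction in Full Tumor against Myelin Alone, and 89 had an unadjusted p under 0.05 in it.

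Whether the tumor-linked change differs with myelin on both sides was tested as the difference of the 2 comparisons. edgeR called 0 of 13414 genes (0%), with 393 (2.93%) at an unadjusted p under 0.05. The count was 0 with DESeq2 and with limma-voom too. Ms4a6b and Ms4a6c were the 2 of the called genes with an unadjusted p under 0.05 for this difference, of 0.0136 and 0.0100 in edgeR (edgeR adjusted p = 1.00 each). Their log2 fold change was smaller by 0.68 and 0.58 in Full Tumor against Myelin Alone than in Tumor without Myelin against Control, a difference of −0.68 ± 0.23 and −0.58 ± 0.19.

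**Figure D3:**
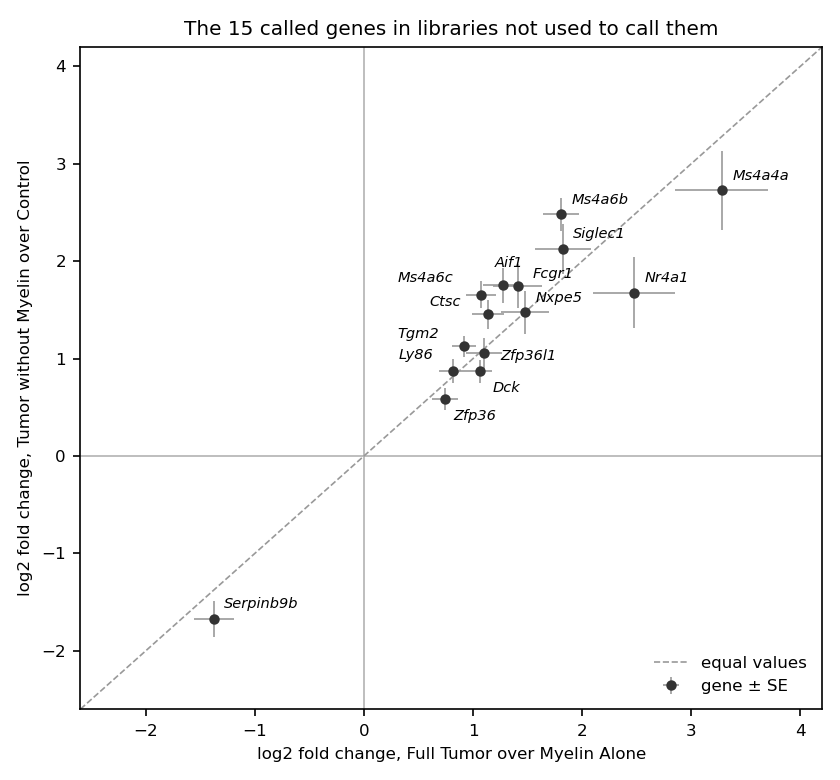
Log2 fold change of the 15 called genes in Full Tumor over Myelin Alone (horizontal axis) and in Tumor without Myelin over Control (vertical axis), with approximate SE bars and a dashed line of equal values. The genes lie in the same direction on both axes, with Ms4a6b and Ms4a6c above the line and Nr4a1 and Ms4a4a below it.

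Genes of the type I interferon response, which encode antiviral effectors and the factors that induce them, separated the mn numbers. All 36 listed genes were tested and edgeR called 0, while 33 had an unadjusted p under 0.05 and 36 had a log2 fold change above 0 (49.0% of all tested genes did). Their median log2 fold change was 1.65, and the median difference was 2.19 at number 957 and 2.03 at 958 but 0.17 at 016. DESeq2 called 10 of the 36 and limma-voom 0. Irf7, the factor that amplifies interferon production, was at 377, 385 and 16.4 CPM in Full Tumor and at 22.4, 18.97 and 14.5 CPM in Myelin Alone. Its Full Tumor library of number 016 was close to the Myelin Alone level, and the log2 fold change of 3.24 ± 0.89 did not pass (edgeR adjusted p = 0.282). Ifit2, an interferon-induced protein that binds RNA, was at 42.3, 56.7 and 11.5 CPM in Full Tumor and at 3.32, 1.82 and 2.27 CPM in Myelin Alone. It did not overlap between the groups, and it missed the threshold with 3.84 ± 0.78 (edgeR adjusted p = 0.113).

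Stat2, a subunit of the interferon-stimulated factor ISGF3, and Zbp1, a sensor of Z-form nucleic acids, had log2 fold changes of 1.19 ± 0.26 and 2.17 ± 0.49 (edgeR adjusted p = 0.142 and 0.159). Summed over the 36 genes, the level was 1207 to 4393 CPM in Full Tumor and 941 to 1252 CPM in Myelin Alone. Without number 016 the same test called 120 of 13510 genes (0.888%), 111 higher (0.822%) and 9 lower (0.0666%), and these included all 15. In that fit 31 of the 36 interferon genes were called, with a median log2 fold change of 2.21, and Irf7 had 4.204 ± 0.18 (edgeR adjusted p = 1.3e-05). In the left-out pair of number 016, 20 of these 31 genes were above 0, with a median difference of 0.17, where 50% of all tested genes were above 0. With number 957 or 958 left out instead, 0 of the 36 were called by edgeR, and their medians were 1.19 and 1.32.

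Irf7 varied by number in the other 6 libraries too, at 398, 518 and 30.0 CPM in Tumor without Myelin and 33.6, 29.4 and 36.3 CPM in Control. The dependence on the number was therefore tested over the 12 libraries, as the tumor effect (Full Tumor and Tumor without Myelin over Myelin Alone and Control) at 016 minus its mean at 957 and 958. This test was added after the pattern had been seen, and it leaves 4 residual degrees of freedom. The libraries that showed the pattern are part of it, so its calls in part restate that pattern. Only 1 number, 016, is set against 957 and 958, so its p-values do not weigh the spread among numbers. The test is not of Full Tumor against Myelin Alone alone, which has 1 library for each group and number. edgeR called 83 of 13414 genes (0.619%), of which 66 had a lower log2 effect at 016 (0.492%) and 17 a higher one. Of the 36 interferon genes 25 were called, all with a lower effect at 016 (31 with DESeq2 and 27 with limma-voom), and the median difference over the 36 was −2.40, against 0.0022 for all tested genes. For Irf7 the difference was −4.10 ± 0.27 and for Stat2 −1.15 ± 0.19 (edgeR adjusted p = 0.000363 and 0.0298). Without the Full Tumor library of number 016 edgeR called 19 genes, with 11 of the 36, and without the Tumor without Myelin library of that number 34, with 16 of the 36.

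The guanylate-binding proteins and immunity-related GTPases, which attack the vacuoles of intracellular microbes and respond to interferons, also had their lowest median at number 016. Of 11 tested genes 0 were called by edgeR and 8 were higher at an unadjusted p under 0.05, with a median of 1.28 and per-pair medians of 1.35, 1.46 and 0.24. DESeq2 called 2 of them and limma-voom 1. Gbp9 was at 20.0, 24.5 and 17.5 CPM in Full Tumor and at 6.64, 3.03 and 6.60 CPM in Myelin Alone. The groups did not overlap and number 016 was in range of the others, and Gbp9 was just outside the threshold at 1.92 ± 0.34 (edgeR adjusted p = 0.0723).

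**Figure D4:**
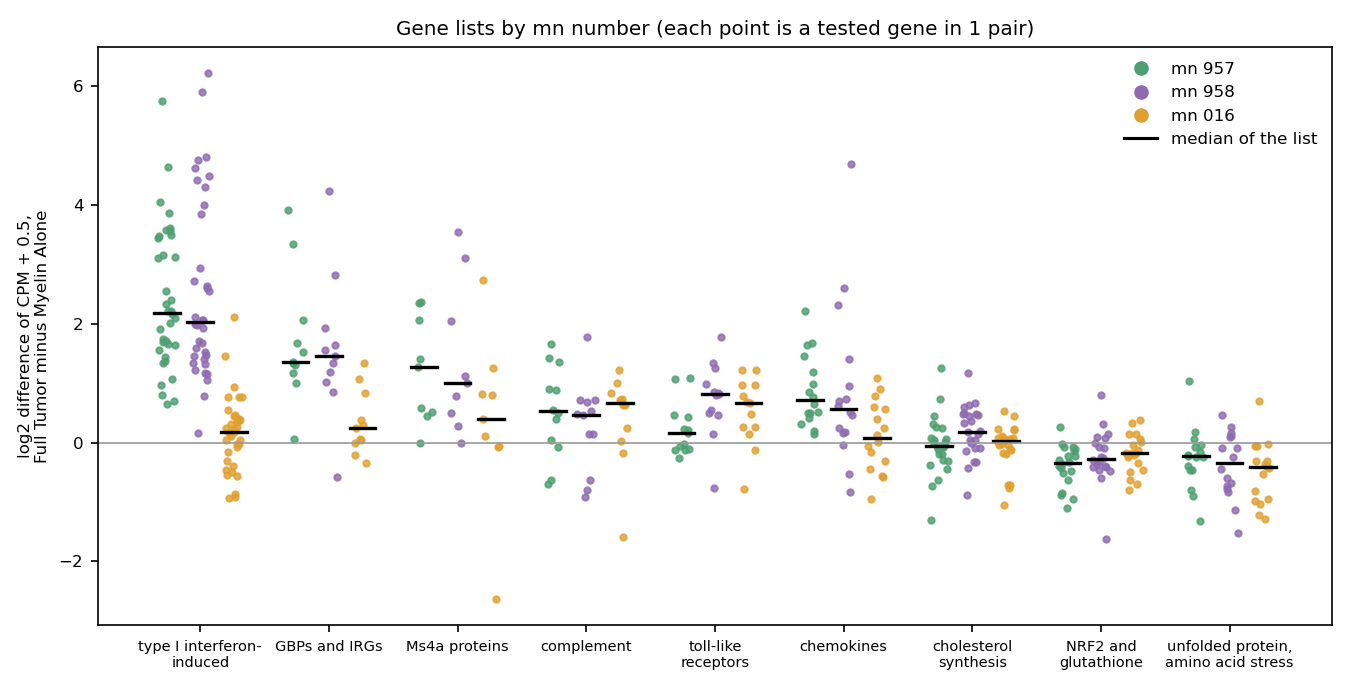
Log2 difference of CPM + 0.5, Full Tumor minus Myelin Alone, for each tested gene of 9 lists in each same-numbered pair (colour), with a bar at the median of the list. The interferon-induced genes are at medians of 2.19 and 2.03 in pairs 957 and 958 and 0.17 in pair 016, while complement genes have medians of 0.53, 0.47 and 0.67.

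Complement genes differed by similar amounts at the 3 numbers, without a call. The first component C1q opens the classical pathway and tags debris for uptake. C1qa was at 361, 583 and 306 CPM in Full Tumor and at 134, 356 and 152 CPM in Myelin Alone, higher in each pair, with a log2 fold change of 1.03 ± 0.20 (edgeR adjusted p = 0.101). C5ar1, the receptor of the anaphylatoxin C5a, was at 774, 918 and 1043 CPM in Full Tumor and 530, 573 and 585 CPM in Myelin Alone. The groups did not overlap, and 0.69 ± 0.12 was just past the limit (edgeR adjusted p = 0.0529). Of 12 tested complement genes edgeR called 0, with 7 higher and 1 lower at an unadjusted p under 0.05 and a median of 0.47. DESeq2 called 7 and limma-voom 2.

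Toll-like receptors of the endosome, which sense RNA, had similar sizes. Tlr7 and Tlr8 had log2 fold changes of 0.67 ± 0.14 and 0.85 ± 0.17 (edgeR adjusted p = 0.112 each), and Tlr1, a partner of Tlr2 at the surface, of 0.91 ± 0.20 (edgeR adjusted p = 0.142). All 3 had Full Tumor libraries above all Myelin Alone libraries. Of 13 tested genes of the list 0 were called and 8 were higher at an unadjusted p under 0.05, with a median of 0.58 (DESeq2 called 4 and limma-voom 0). Msr1, the scavenger receptor A that binds modified lipoproteins, was at 631, 602 and 1122 CPM in Full Tumor and at 494, 376 and 592 CPM in Myelin Alone. It was in the same position as C5ar1 at 0.65 ± 0.11 (edgeR adjusted p = 0.0529). The 23 tested scavenger and phagocytic receptors had 0 calls, 5 genes higher at an unadjusted p under 0.05 and a median of 0.31 (DESeq2 called 3 and limma-voom 1).

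Chemokines were mixed by number. Pf4, the platelet factor CXCL4 that macrophages also make, was at 71.1, 139 and 128 CPM in Full Tumor and 21.9, 71.2 and 83.9 CPM in Myelin Alone. Ccl6, a chemokine that attracts myeloid cells in mice, was at 72.3, 82.2 and 60.0 CPM in Full Tumor and 42.4, 50.6 and 40.3 CPM in Myelin Alone. Their log2 fold changes of 1.07 ± 0.18 and 0.68 ± 0.11 were just outside the threshold (edgeR adjusted p = 0.0529 each). Ccl6 had a log2 fold change of 0.018 in Tumor without Myelin against Control, and the difference between the comparisons had an unadjusted p of 0.00134 in edgeR (adjusted p = 1.00). Ccl2, which draws monocytes through CCR2, was at 8.97, 21.0 and 352 CPM in Full Tumor and 2.95, 3.03 and 267 CPM in Myelin Alone. Both libraries of number 016 were far above the other 4, and the log2 fold change was 1.63 ± 0.42 (edgeR adjusted p = 0.244). Of 16 tested chemokines 0 were called and 7 were higher at an unadjusted p under 0.05, with per-pair medians of 0.71, 0.56 and 0.071. DESeq2 called 3 of them and limma-voom 2.

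Among matrix genes Thbs1, thrombospondin-1, a matrix glycoprotein that activates TGF-beta, was at 29.0, 26.5 and 12.0 CPM in Full Tumor and at 3.95, 3.53 and 5.54 CPM in Myelin Alone. The groups did not overlap, and the log2 fold change was 2.38 ± 0.43 (edgeR adjusted p = 0.0723). In Tumor without Myelin against Control it was 0.44, and the unadjusted p of the difference was 0.00565 in edgeR (adjusted p = 1.00). Thbs1 was called without number 016 (2.90 ± 0.27, edgeR adjusted p = 0.000761) and not without 957 or 958 (2.10 and 2.06, edgeR adjusted p = 0.434 and 0.841). Of 19 tested metalloproteinases and matrix genes 0 were called, 6 were higher and 1 was lower at an unadjusted p under 0.05, and the median was 0.42 (DESeq2 called 3 and limma-voom 0).

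Below 0, genes of the oxidative and amino acid stress responses formed the lists with the lowest medians among the pathways described, without a call. NRF2 is the transcription factor that raises glutathione and quinone detoxification. Of the 20 tested genes of the NRF2 and glutathione list, 10 were lower at an unadjusted p under 0.05 and 0 higher, against 2.87% of all tested genes lower. In the 3 pairs 12 were lower, against 11.6%. DESeq2 called 4 of the 20 and limma-voom 0. The median was −0.24, with −0.34, −0.27 and −0.18 at numbers 957, 958 and 016. Nqo1, a quinone reductase, was at 13.5, 5.76 and 22.4 CPM in Full Tumor and at 29.4, 18.7 and 34.9 CPM in Myelin Alone, lower in each pair, with −1.16 ± 0.23 (edgeR adjusted p = 0.104). Gstm1, a glutathione transferase, had −0.48 ± 0.12 and Srxn1, sulfiredoxin, −0.42 ± 0.12 (edgeR adjusted p = 0.234 and 0.278), both without overlap between the groups.

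The unfolded protein and amino acid stress list, which includes the gene of the factor ATF4, had 8 of 16 genes lower at an unadjusted p under 0.05, against 2.87% of all tested genes. In 5 the groups did not overlap, against 3.12% of all tested genes downward, and the median was −0.38. edgeR and limma-voom called 0 of the 16 and DESeq2 2. Mthfd2, a mitochondrial enzyme of the folate cycle, was at 81.7, 60.1 and 93.5 CPM in Full Tumor and 108, 99.7 and 126 CPM in Myelin Alone, with −0.52 ± 0.12 (edgeR adjusted p = 0.146). Trib3, a pseudokinase induced by ATF4, had −0.996 ± 0.28, and Chac1, which degrades glutathione, −1.05 ± 0.32 (edgeR adjusted p = 0.291 and 0.353). Of 17 tested heat shock and chaperone genes edgeR called 0, with 4 higher and 0 lower at an unadjusted p under 0.05 and a median of 0.15 (DESeq2 called 3 and limma-voom 0). In this list Calr, Hsp90b1 and Hspa5, chaperones of the endoplasmic reticulum, had log2 fold changes of 0.46 ± 0.09, 0.52 ± 0.12 and 0.52 ± 0.14 (edgeR adjusted p = 0.112, 0.166 and 0.263), each with all Full Tumor libraries above all Myelin Alone libraries.

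Genes of lipid handling gave no edgeR call in Full Tumor against Myelin Alone. The cholesterol synthesis list, targets of SREBP2, had 24 tested members, of which edgeR called 0, with 1 higher and 1 lower at an unadjusted p under 0.05; DESeq2 and limma-voom also called 0. The median was 0.082, and −0.055, 0.18 and 0.026 by pair. Sqle, squalene epoxidase, was at 58.7, 42.9 and 66.9 CPM in Full Tumor and 67.1, 54.2 and 75.5 CPM in Myelin Alone, with a log2 fold change of −0.24 and a 95% interval of −0.53 to 0.060. Of 17 tested LXR targets and efflux genes 0 were called and 5 were higher at an unadjusted p under 0.05, with a median of 0.099 (DESeq2 called 1 and limma-voom 0). Abca1, the exporter that loads cholesterol onto apolipoproteins, was at 184, 227 and 132 CPM in Full Tumor and 118, 144 and 47.4 CPM in Myelin Alone. It was higher in each pair, with a log2 fold change of 0.95 and a 95% interval of 0.10 to 1.81 (edgeR adjusted p = 0.606). Abcg1, an exporter to lipoproteins, had 0.10, with an interval of −0.14 to 0.35. Apoe, the main apolipoprotein of the brain, had 0.40 ± 0.13 and Pltp, a phospholipid transfer protein, 0.53 ± 0.13 (edgeR adjusted p = 0.386 and 0.209). In Tumor without Myelin against Control, Abca1, Apoe and Pltp were called, at 2.21, 0.81 and 1.21 (edgeR adjusted p = 0.0347, 0.0149 and 0.00289). Abcg1 and Sqle were not called there, at 0.15 and −0.51 (edgeR adjusted p = 0.763 and 0.151). The difference between the comparisons was not called for any of them.

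Genes that mark macrophages laden with lipid gave no call in edgeR. Of 20 tested genes 0 were called, and 4 were higher and 2 lower at an unadjusted p under 0.05, against 4.55% and 2.87% of all tested genes. The median was 0.070 (DESeq2 called 2 and limma-voom 0). Spp1, osteopontin, had a log2 fold change of 0.24 with a 95% interval of 0.038 to 0.44, Plin2, a coat protein of lipid droplets, 0.17 with 0.023 to 0.32, and Cd9, a tetraspanin, −0.28 with −0.42 to −0.13. None of these 3 passed (edgeR adjusted p = 0.562, 0.582 and 0.192). Itgax, an integrin gene, did not pass either, with −0.55 ± 0.15 (edgeR adjusted p = 0.270). The intervals are not adjusted for the number of genes.

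Markers of other cell types were read in the same libraries, since sorted cells can carry RNA of their surroundings. Fewer cells of a type and less RNA per cell cannot be told apart in these bulk samples. Neuron markers summed to 0.342 to 1.61 CPM in Full Tumor and 0 to 0.499 CPM in Myelin Alone, and erythroid markers to 0.114 to 0.264 CPM in Full Tumor and 0.110 to 0.499 CPM in Myelin Alone. T and NK cell markers summed to 3.17 to 8.21 CPM in Full Tumor and 5.38 to 6.64 CPM in Myelin Alone. The sums over oligodendrocyte markers were 343 to 666 CPM in Full Tumor and 294 to 502 CPM in Myelin Alone. The tested members of that list had 0 calls and a median log2 fold change of 0.37. Its sum is not split by member here, so it does not measure RNA of oligodendrocytes or of myelin. Monocyte markers summed to 110 to 134 CPM in Full Tumor and 28.0 to 143 CPM in Myelin Alone. Of the 11 tested, 4 were higher at an unadjusted p under 0.05 and 1 of these, Nr4a1, was called, with a median log2 fold change of 1.37 and per-pair medians of 1.55, 1.95 and −0.039.

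Endothelial and mural markers summed to 70.3 to 86.5 CPM in Full Tumor and 69.4 to 91.7 CPM in Myelin Alone. Of the 10 tested 0 were called, 1 was higher and 1 lower at an unadjusted p under 0.05, and the median log2 fold change was 1.74, against per-pair medians of 0.090, 0.97 and 0.31. Astrocyte markers summed to 36.9 to 109 CPM in Full Tumor and 83.5 to 123 CPM in Myelin Alone, and the 5 tested had 0 calls, 1 gene lower at an unadjusted p under 0.05 and a median of 1.47, against per-pair medians of 0.14, 0 and −0.29. The fitted medians of these 2 lists include genes with 0 counts in a group, and limma-voom gave 0.58 and 0.82. Markers of oligodendrocyte precursors and tumor cells summed to 989 to 1237 CPM in Full Tumor and 1056 to 1388 CPM in Myelin Alone, with Olig2 at 0 in all 6 libraries. This list includes Vim, and its sum is not split by member here, so it does not measure RNA of tumor cells. The 7 tested members had 0 calls, 1 lower at an unadjusted p under 0.05 and a median of −0.41 (DESeq2 called 1 and limma-voom 0). Neutrophil markers summed to 159 to 239 CPM in Full Tumor and 112 to 316 CPM in Myelin Alone, and of 14 tested 0 were called and 3 were lower at an unadjusted p under 0.05, with a median of −0.036 and per-pair medians of 0.23, 0.73 and −2.001 (DESeq2 called 0 and limma-voom 2).

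The 13 microglia markers in the table, several of which these macrophages share, summed to 2407 to 3013 CPM in Full Tumor and 2348 to 2872 CPM in Myelin Alone, with Slc2a5 at 0 in all 6 libraries. Of the 11 tested, 4 were higher at an unadjusted p under 0.05 and 0 were called. Of the markers that define microglia, P2ry12 was at 0.686, 1.71 and 1.46 CPM in Full Tumor and 0.263, 0.0551 and 1.50 CPM in Myelin Alone. Tmem119 was at 2.53, 2.62 and 14.8 CPM in Full Tumor and 1.37, 2.32 and 5.99 CPM in Myelin Alone. Fcrls, an Fc receptor-like gene of microglia, was at 52.9, 97.3 and 101 CPM in Full Tumor and 33.2, 33.8 and 24.997 CPM in Myelin Alone, without overlap, and did not pass at 1.42 ± 0.33 (edgeR adjusted p = 0.179). In Tumor without Myelin against Control, Fcrls and Tmem119 were called, at 2.87 and 2.64 (edgeR adjusted p = 0.00554 and 0.0297). P2ry12 was not called there, at 2.20 (edgeR adjusted p = 0.556). The part of other cell types in the 15 calls was not tested.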

How the data were processed

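Libraries were made from RNA of sorted cells by oligo-dT priming and template switching, per the labels' protocols. As deposited, the table gives counts of reads per gene with no scaling by the authors, beside identifiers, symbols and positions on mm10 (build per the submitters' processing notes). Which aligner, counter and strand setting made it is "not given in the sources used here". Genes that overlap, lie antisense or are close copies may therefore hold each other's reads.

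CPM here use the library total times its TMM factor (0.976 to 1.03 in the 6 libraries). Differences were tested with edgeR 4.0.16 (limma 3.58.1, R 4.3.3) by quasi-likelihood after filterByExpr, on 12 libraries with group and mn number as terms and 6 residual degrees of freedom. P-values are two-sided, with Benjamini-Hochberg adjustment across the 13414 tested genes. An approximate SE was taken as the size of the log2 fold change divided by the root of F. Per-pair differences are on log2(CPM + 0.5), and values in sentences follow the numbers 957, 958 and 016. There were 3 comparisons: Full Tumor against Myelin Alone, Tumor without Myelin against Control, and their difference, with a tumor-by-number term added after seeing the data.

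The mn number pairs the libraries: deviations from the group means correlated above 0.1 in all 18 same-numbered pairs across genes (0.138 to 0.727), and in the 3 pairs of Full Tumor with Myelin Alone at 0.138 to 0.493. Some libraries of 957 and 958 also correlated across numbers: Full Tumor 957 at 0.319 with Tumor without Myelin 958 and at 0.184 with Myelin Alone 958, above its 0.138 with Myelin Alone 957. Within Full Tumor and within Myelin Alone, no library was a duplicate of another. Pairs across groups and the libraries of the other groups were not checked in this way. The procedure was also run on simulated data, and the outcome is not used here as support for any call. DESeq2 1.42.0, limma-voom, other filters and scalings, no mn term and left-out libraries were alternatives. Members, the 49 gene lists and the comparisons were chosen with earlier results of these data known. Genes were named if called, with a level of 10 CPM or more where higher and 1 direction in the 3 pairs (up to 12 higher and 12 lower), if among the up to 4 listed genes with the smallest p, or if on a panel of macrophage genes. Tmem119, P2ry12, Slc2a5, Olig2 and the less abundant Ms4a genes are named beside these as markers or members of the family described.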

Additional observations from a re-analysis of the deposited data

How the results depend on the processing

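The count of called genes in Full Tumor against Myelin Alone depends on the processing more than their direction does. With the mn number as a replicate block it was 15 (14 higher, 1 lower). With no replicate block edgeR called 0 (0 higher, 0 lower), and in Tumor without Myelin against Control 0 in place of 100. The 6 libraries alone gave 1 (1 higher, 0 lower), DESeq2 gave 163 (129 and 34), limma-voom 34 (25 and 9), no low-count filter 89 (81 and 8), a stricter filter 25 (23 and 2), and library totals alone 10 (9 and 1). For Tumor without Myelin against Control DESeq2 gave 321, limma-voom 171 and no filter 188. All 15 genes stayed called with DESeq2, limma-voom, RLE size factors (15 calls), no filter and the stricter filter, and 10 of them with totals alone.

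Leaving out 1 library or 1 number gave 0 to 120 calls (0 to 111 higher, 0 to 9 lower), and 4 to 153 in Tumor without Myelin against Control. Single libraries that moved the count by more than 1.5 times were Full Tumor 957 (5) and 958 (3), Myelin Alone 957 (0, with 1498 at an unadjusted p under 0.05) and 958 (1), Tumor without Myelin 957 (8), and Control 958 (8) and 016 (53). Leaving out number 957 or 958 gave 0 calls each (1353 and 683 at an unadjusted p under 0.05), and leaving out 016 gave 120. The fits without a Control or a Tumor without Myelin library were added after seeing the data. None of the 15 genes changed direction in any of these settings. The difference of the 2 comparisons stayed at 0 calls throughout. Among 72 genes followed, 3 that were not called changed sign: the log2 fold change of H2-Ab1 (0.19) ranged over −0.028 to 0.52 with a library or number left out, that of Gpnmb (0.064) over −0.074 to 0.16, and that of Trem2 (−0.069) over −0.14 to 0.026. For the tumor effect by number (83 genes called, 25 of them interferon genes), no filter gave 274, DESeq2 313 and limma-voom 133, with 25 to 31 interferon genes in these and the other scalings and filters; leaving out 1 library gave 19 to 119 genes and 11 to 28 interferon genes, with Full Tumor 957 (40), Control 957 (54) and 016 (40) and Tumor without Myelin 958 (55) also moving the count by more than 1.5 times. The causes were not tested. A gene with 0 counts allows 0.142 to 0.171 CPM, and with 3 libraries a group small changes of variable genes were not detectable.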

Other observations

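Antigen presentation, respiration and growth were not among the called changes of Full Tumor against Myelin Alone. Of 18 tested genes of MHC class I and the immunoproteasome, which present peptides to CD8+ T cells, edgeR called 0 and 0 had an unadjusted p under 0.05 (DESeq2 called 0 and limma-voom 0). Their median log2 fold change was 0.25, with 0.57 and 0.52 at numbers 957 and 958 and −0.26 at 016. DESeq2 and limma-voom likewise called 0 in the class II, respiration and cell cycle lists. The 9 tested MHC class II genes had 0 calls, 0 at an unadjusted p under 0.05 and a median of 0.013, and Cd74, the invariant chain, was at 685, 959 and 369 CPM in Full Tumor and 435, 708 and 360 CPM in Myelin Alone, with a 95% interval of −0.059 to 0.84 for its log2 fold change of 0.39. The 30 nuclear-encoded genes of oxidative phosphorylation had 0 calls, 0 at an unadjusted p under 0.05 and a median of −0.072.

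The 35 tested cell cycle genes had 0 calls, 0 at an unadjusted p under 0.05 and per-pair medians of −0.066, −0.041 and 0.57. Mki67, a marker of cycling cells, was at 17.7, 21.3 and 84.5 CPM in Full Tumor and 14.8, 21.9 and 55.1 CPM in Myelin Alone, with both libraries of number 016 the highest of their group. Without number 016, edgeR's calls beyond the interferon list included 6 of the guanylate-binding proteins and immunity-related GTPases, 6 complement genes and 2 genes of MHC class I and the immunoproteasome. C1qa (1.05 ± 0.17, edgeR adjusted p = 0.0185), Cd14, a co-receptor for lipopolysaccharide (0.97 ± 0.12, edgeR adjusted p = 0.00345), and Il18bp, a secreted inhibitor of interleukin-18 (1.72 ± 0.22, edgeR adjusted p = 0.00504), were among the 111 higher genes of that fit, of which 79 were above 0 in the left-out pair.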
